A study of Homo sapiens with 12 samples.

Results

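Cells of T47D, an established human breast cancer line with receptors for progesterone and estrogen, received a progestin for 6 h at 10 nM or at 100 pM, and their RNA is compared here. The comparison holds 2 libraries at 10 nM and 2 at 100 pM, which is 4 of the 12 libraries of the series. They were chosen by the dose and time in their labels and are numbered replicate 1 and replicate 3 at each dose. All cells had been plated in medium without phenol red that held 8% charcoal-stripped serum, and were then starved in 0.1% stripped serum for 24 to 48 h before treatment. The labels call the agent a progestin and do not name it further. The 2 libraries of vehicle-treated cells at 6 h give a background level. The 4 libraries of the same doses at 18 h are used to ask whether the difference between doses had the same size at a later time. By its title, the study asked how the output of such cells depends on the level of progestin. All values come from 1 cell line. The labels do not say whether replicates were grown as separate cultures, so a p-value here reflects the spread of these libraries alone, which may be technical.

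A progestin binds the progesterone receptor, a transcription factor that is held by chaperones until hormone arrives and then binds hormone response elements in DNA. Glucocorticoid, mineralocorticoid and androgen receptors can use the same elements, so that genes such as FKBP5 and SGK1 respond to several steroid hormones. In the breast, progesterone acts on luminal epithelial cells, where it works together with estrogen in growth and alveolar development and passes signals on through secreted ligands.

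Total counts of the 4 libraries ran from 34909122 to 41373890. The share of counts from mitochondrially encoded genes was 6.73% to 10.7%, and at each dose it was higher in replicate 3 than in replicate 1. Within both replicates it was lower at 10 nM (6.73% and 8.93%) than at 100 pM (7.89% and 10.7%). With these genes left out 5144 genes were called in place of the 5127 given below. Levels are in CPM, the counts over the library total scaled between libraries by TMM, and do not correct for gene length, so they are compared between libraries and not between genes. Where 2 levels are given for a dose, the first is replicate 1 and the other replicate 3. A log2 value after a gene is the log2 fold change of 10 nM against 100 pM at 6 h ± SE (n = 2 against 2). All 13 markers of T47D and luminal breast cells had counts in all 4 libraries. The 13 summed to 12840 to 13156 CPM at 100 pM, 8069 to 8089 CPM at 10 nM and 13491 to 13504 CPM in vehicle. Of the 13, 7 were lower at 10 nM. The marker sums of this paragraph, unlike the levels of single genes, were not scaled by TMM. The TMM factors were 0.988 and 1.003 at 100 pM, 0.947 and 0.933 at 10 nM and 1.034 and 1.0385 in vehicle. Small differences between the sums, such as that of vehicle from 100 pM, are therefore not read. The 10 immune cell markers summed to 4.38 to 5.15 CPM at 100 pM and 2.83 to 3.37 CPM at 10 nM, and of the 3 with enough counts to test 1 was lower and 2 were not called. The 10 basal and myoepithelial markers summed to 49.7 to 57.7 CPM and 29.5 to 31.7 CPM, with 1 called higher, KRT5, 2 lower and 7 not called. Without 10 nM replicate 3 the same list had 1 higher and 0 lower. The 12 endothelial and fibroblast markers in the table summed to 94.0 to 114 CPM at 100 pM and 104 to 107 CPM at 10 nM, with CDH5 and COL1A2 at 0 in all 4 libraries. Of the 6 of these that could be tested 2 were called higher at 10 nM and 4 were not called. The 2 were VWF, with 0.171 and 0.114 CPM at 100 pM and 0.526 and 0.536 at 10 nM, and PDGFRB, with 0 and 0.0286 CPM at 100 pM and 0.415 and 0.423 at 10 nM, from 7 and 4 and from 0 and 1 counts at 100 pM. VWF lost its call without 100 pM replicate 3, 10 nM replicate 1 or 10 nM replicate 3 (edgeR adjusted p = 0.0556 to 0.0962), and PDGFRB lost its call without 100 pM replicate 1 (edgeR adjusted p = 0.0746). The part of these markers in the results was not tested. In bulk RNA fewer cells of a type and less RNA per cell cannot be told apart.

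The doses differed in a large part of the transcriptome. Of 13872 genes tested, 2795 (20.1%) were higher at 10 nM and 2332 (16.8%) were lower, 37% in all, at an edgeR adjusted p under 0.05. The counts of each gene list below are to be read beside these shares. The difference was more than 4-fold for 302 genes higher and 226 lower, and more than 8-fold for 144 and 60. The libraries of the doses did not overlap for 68.6% of all genes tested, so separation of 2 libraries from 2 is common here and is read only beside the test. Between libraries of 1 dose the median gene differed by 0.18 (10 nM) and 0.20 (100 pM) on the log2 scale, and between the doses by 0.39. The difference measured within replicate 1 followed the one measured within replicate 3 across the 13872 genes (Pearson r = 0.887), which are not independent of each other. The 5127 calls became 3281 without 100 pM replicate 3, of which 1979 were higher and 1302 lower. The split between the directions depended on the scaling. With upper-quartile scaling, which moved the median of all genes from -0.033 to -0.13, 2326 genes were higher and 2975 lower.

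**Figure D1:**
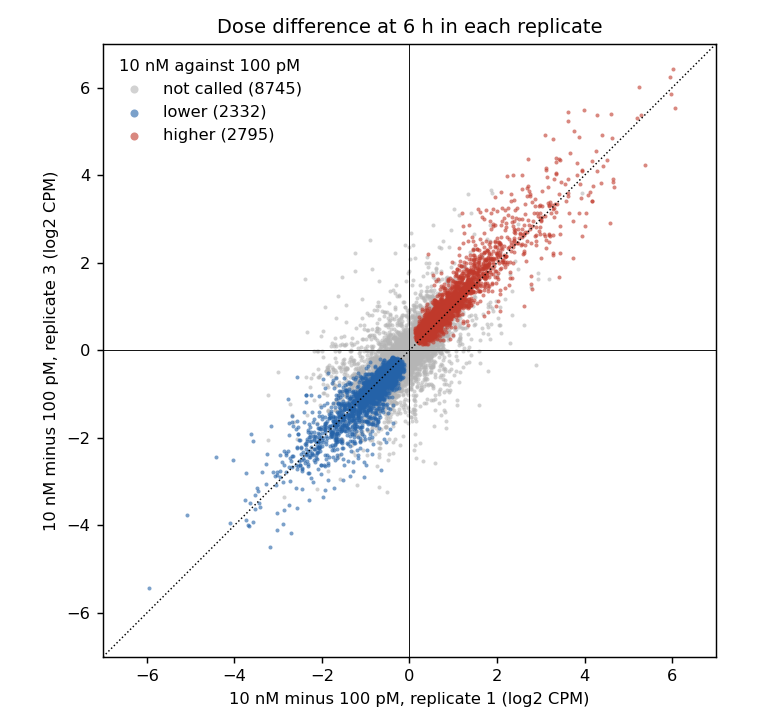
Log2 difference between 10 nM and 100 pM at 6 h within replicate 1 (x axis) and within replicate 3 (y axis), in log2 CPM with a prior count of 2, for each of the 13872 genes tested. Red points are the 2795 genes called higher at 10 nM, blue points the 2332 called lower and grey points the rest, and the called genes lie along the diagonal in both directions.

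Called genes were ranked where their average log2 CPM was 2 or more and the libraries of the doses did not overlap. The average is over all 12 libraries of the series, so a gene low in those compared here can pass. Symbols that mark clones, uncharacterised loci, antisense genes, noncoding RNAs or pseudogenes were left out. By this rule the 12 largest rises at 10 nM were of varied function. CNTFR, the ligand-binding subunit of the receptor for ciliary neurotrophic factor, measured 0.712 and 0.564 CPM in vehicle, 0.465 and 0.657 at 100 pM and 19.04 and 28.04 at 10 nM (log2 5.39 ± 0.29, edgeR adjusted p = 7.13e-06). GABRQ, a subunit of GABA-A receptor channels, measured 3.002 and 3.33 CPM in vehicle, 1.76 and 2.77 at 100 pM and 41.1 and 57.6 at 10 nM (log2 4.45 ± 0.30, edgeR adjusted p = 1.99e-05). LRP8, a receptor for apolipoprotein E and reelin, measured 9.28 and 7.198 CPM in vehicle, 10.5 and 5.94 at 100 pM and 107 and 127 at 10 nM (log2 3.82 ± 0.35, edgeR adjusted p = 8.36e-05). In all 3 genes the 100 pM libraries lay near vehicle and both 10 nM libraries lay far above. The same held for LOX, which crosslinks collagen, with 0.8903 and 1.38 CPM in vehicle, 1.57 and 2.199 at 100 pM and 24.3 and 25.2 at 10 nM (log2 3.72 ± 0.38, edgeR adjusted p = 0.000142). MMP28, a secreted metalloproteinase, measured 0.407 and 0.973 CPM in vehicle, 0.636 and 0.685 at 100 pM and 6.95 and 12.3 at 10 nM (log2 3.86 ± 0.40, edgeR adjusted p = 0.000157). The other 7 of the 12 largest rises were SCRG1 (log2 5.36 ± 0.33), the adhesion receptor gene GPR124 (log2 4.797 ± 0.29), the septin gene SEPT14 (log2 4.79 ± 0.74), the protease inhibitor gene SERPINE2 (log2 4.54 ± 0.42), the carbonyl reductase gene CBR3 (log2 4.36 ± 0.43), PALMD (log2 4.23 ± 0.43) and EEPD1 (log2 4.18 ± 0.24). SCRG1 had 8 and 5 counts, SEPT14 4 and 2, CNTFR 19 and 23, SERPINE2 23 and 19 and MMP28 26 and 24 counts at 100 pM, so the size of these rises rests on few reads.

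By the same rule, the 12 largest falls were of varied function too. SLC40A1, the iron exporter ferroportin, measured 881 and 1338 CPM in vehicle, 881 and 1340.4 at 100 pM and 83.2 and 113 at 10 nM (log2 -3.501 ± 0.40, edgeR adjusted p = 0.000238). VAV3, a guanine nucleotide exchange factor, measured 223 and 249 CPM in vehicle, 107 and 139 at 100 pM and 9.24 and 14.02 at 10 nM (log2 -3.41 ± 0.28, edgeR adjusted p = 5.07e-05). AMIGO2, a cell adhesion protein, measured 62.7 and 64.8 CPM in vehicle, 12.7 and 10.9 at 100 pM and 1.27 and 1.27 at 10 nM (log2 -3.21 ± 0.22, edgeR adjusted p = 1.79e-05). SLC40A1 had nearly the same levels in vehicle and at 100 pM, whereas VAV3 and AMIGO2 were already lower at 100 pM than in vehicle. In all 3 both 10 nM libraries lay below every other library of 6 h. SLC2A12, a glucose transporter, measured 5.32 and 3.28 CPM in vehicle, 11.8 and 8.25 at 100 pM and 0.8304 and 1.13 at 10 nM (log2 -3.35 ± 0.39, edgeR adjusted p = 0.000271). ITGA10, an integrin subunit, measured 3.18 and 7.53 CPM in vehicle, 18.7 and 37.4 at 100 pM and 1.63 and 4.17 at 10 nM (log2 -3.27 ± 0.60, edgeR adjusted p = 0.00299). These 2 genes were highest at 100 pM. The other 7 of the 12 largest falls were SOX2 (log2 -6.53 ± 0.69), a stem cell transcription factor, CYP1A1 (log2 -4.71 ± 1.21), an enzyme induced by dioxin, FAM83A (log2 -3.87 ± 0.54), EHF (log2 -3.81 ± 0.24), SLITRK6 (log2 -3.68 ± 0.44), RBBP8NL (log2 -3.64 ± 0.41) and C6orf141 (log2 -3.46 ± 0.41). SOX2 had 1 and 3 counts, FAM83A 8 and 6 and RBBP8NL 22 and 33 counts at 10 nM, so the size of these falls rests on few reads. Among these 24 genes CYP1A1 was the only 1 to lose its call when a single library was left out. CYP1A1 lost its call without 100 pM replicate 1, 10 nM replicate 1 or 10 nM replicate 3 (edgeR adjusted p = 0.0626 to 0.0944).

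Genes of steroid receptors and their coregulators were more often lower than higher at 10 nM. Of the 23 tested, 4 were higher at 10 nM, 8 were lower and 11 were not called (median log2 -0.12, against -0.033 over all genes tested). That is 17.4% higher and 34.8% lower, against 20.1% and 16.8% of all genes tested. PGR, the progesterone receptor, measured 2111 and 1786 CPM in vehicle, 1540.2 and 1189 at 100 pM and 589 and 493 at 10 nM (log2 -1.33 ± 0.29, edgeR adjusted p = 0.00722). ESR1, the estrogen receptor alpha, measured 204 and 242 CPM in vehicle, 139 and 165 at 100 pM and 49.2 and 71.1 at 10 nM (log2 -1.34 ± 0.19, edgeR adjusted p = 0.000888). NR3C2, the mineralocorticoid receptor, measured 12.6 and 11.99 CPM in vehicle, 10.6 and 9.71 at 100 pM and 4.26 and 4.23 at 10 nM (log2 -1.26 ± 0.13, edgeR adjusted p = 0.000175). In these 3 genes both 10 nM libraries lay below both 100 pM libraries, which in turn lay below vehicle. PGR lost its call without 10 nM replicate 3 (edgeR adjusted p = 0.0516). The glucocorticoid receptor gene NR3C1 measured 22.2 and 21.2 CPM in vehicle, 15.3 and 14.2 at 100 pM and 16.4 and 11.9 at 10 nM, and the libraries of the doses overlapped (log2 -0.059 ± 0.20, 95% interval -0.52 to 0.40). VDR, the vitamin D receptor, measured 110.3 and 124 CPM in vehicle, 208 and 199 at 100 pM and 702 and 689 at 10 nM (log2 1.77 ± 0.10, edgeR adjusted p = 6.99e-06). VDR thus went the other way, with both 10 nM libraries far above the rest. RARA, a retinoic acid receptor (log2 -1.13 ± 0.17), and the coactivator gene NCOA3 (log2 -0.83 ± 0.11) were lower. FKBP4, the HSP90 co-chaperone of steroid receptor complexes, was higher (log2 1.16 ± 0.12).

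**Figure D2:**
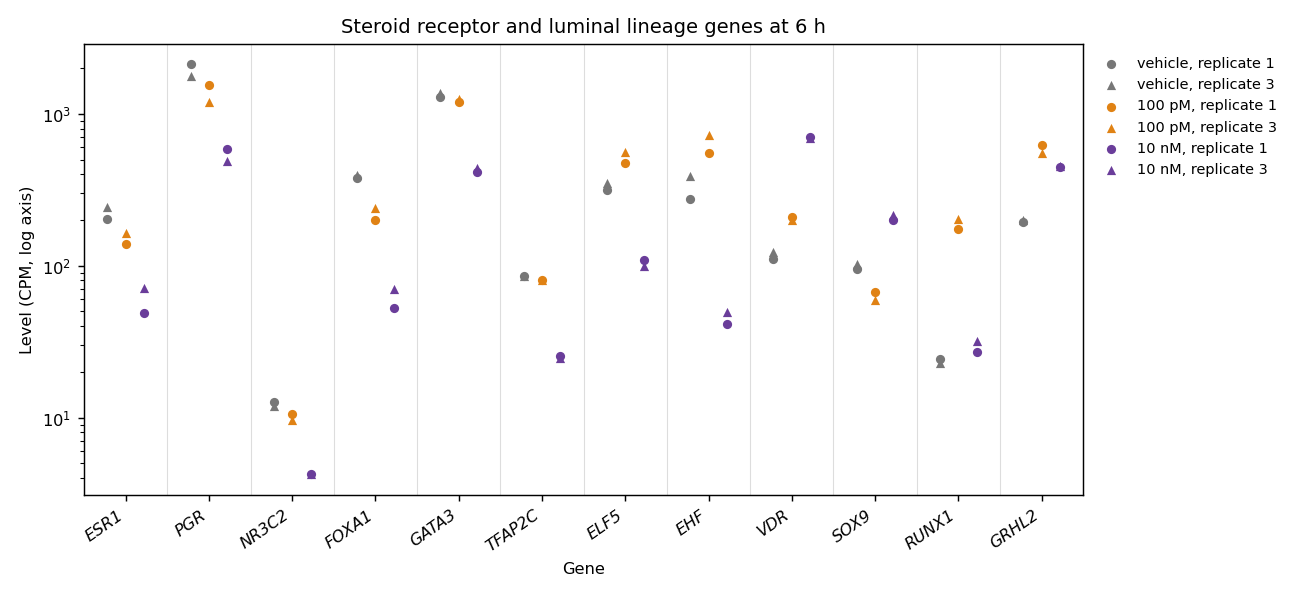
Levels of 12 genes of steroid receptors and luminal lineage in the 6 libraries of 6 h, in CPM on a log axis, with vehicle in grey, 100 pM in orange and 10 nM in purple, circles for replicate 1 and triangles for replicate 3. The 10 nM libraries lie lowest for ESR1, PGR, NR3C2, FOXA1, GATA3, TFAP2C, ELF5 and EHF and highest for VDR and SOX9, while for RUNX1 and GRHL2 the 100 pM libraries lie highest.

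The genes listed here for the response to progestins and glucocorticoids did not move as a group. Of the 40 tested members of 42 listed, 11 were higher at 10 nM, 13 were lower and 16 were not called (median log2 -0.11). The called share of 60% was above the 37% of all genes tested, with both directions present. The list was chosen with earlier results of these data known, so this share is not independent of them. The counts of 11 and 13 became 7 and 8 without 100 pM replicate 3, higher before lower. A first group had its highest level at 100 pM. SGK1, a kinase that regulates ion transport, measured 0.102 and 0.256 CPM in vehicle, 38.1 and 62.3 at 100 pM and 8.996 and 18.1 at 10 nM (log2 -1.89 ± 0.39, edgeR adjusted p = 0.00555). PER1, a repressor of the circadian clock, measured 13.6 and 17.1 CPM in vehicle, 42.4 and 47.9 at 100 pM and 19.4 and 23.1 at 10 nM (log2 -1.09 ± 0.22, edgeR adjusted p = 0.00449). KLF9, a zinc finger factor, measured 5.14 and 6.81 CPM in vehicle, 16.9 and 19.6 at 100 pM and 8.47 and 8.32 at 10 nM (log2 -1.12 ± 0.22, edgeR adjusted p = 0.00444). For these 3 the 10 nM libraries lay between vehicle and 100 pM. STAT5B, which relays growth hormone and prolactin signals, followed the same order with 81.2 and 76.7 CPM in vehicle, 129 and 144 at 100 pM and 88.2 and 93.4 at 10 nM (log2 -0.59 ± 0.087, edgeR adjusted p = 0.000893). ELF5, the transcription factor of alveolar differentiation, measured 314 and 351 CPM in vehicle, 471 and 558 at 100 pM and 108 and 99.6 at 10 nM (log2 -2.31 ± 0.15, edgeR adjusted p = 1.71e-05). Its 10 nM libraries lay below vehicle, unlike those of the genes before it. Of the 14 KLF factors tested, which include KLF9, 28.6% were called, against the 37% of all genes. Among them 1 was higher at 10 nM, 3 were lower and 10 were not called. In the same order, higher before lower, the counts were 3 and 2 without 100 pM replicate 1 and 0 and 2 without 10 nM replicate 1.

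A second group was highest at 10 nM. TSC22D3, an anti-inflammatory leucine zipper protein, measured 15.3 and 22.8 CPM in vehicle, 32.8 and 29.1 at 100 pM and 155 and 175 at 10 nM (log2 2.41 ± 0.19, edgeR adjusted p = 3.66e-05). PDK4, which inhibits pyruvate dehydrogenase, measured 3.51 and 3.94 CPM in vehicle, 15.8 and 13.9 at 100 pM and 39.996 and 45.6 at 10 nM (log2 1.53 ± 0.12, edgeR adjusted p = 3.59e-05). In both genes the levels stepped up from vehicle to 100 pM and again to 10 nM with no overlap of libraries. HSD11B2, which inactivates cortisol, did so too, with 2.72 and 2.33 CPM in vehicle, 8.199 and 10.4 at 100 pM and 26.2 and 37.7 at 10 nM (log2 1.78 ± 0.21, edgeR adjusted p = 0.000315).

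In a last group both doses lay above vehicle and the difference between the doses did not pass the test without a replicate block. FKBP5, a co-chaperone of steroid receptors, measured 30.6 and 59.4 CPM in vehicle, 627 and 885 at 100 pM and 419.8 and 612 at 10 nM (log2 -0.55 ± 0.36, 95% interval -1.38 to 0.27). GREB1, a receptor coregulator, measured 183 and 213 CPM in vehicle, 760.4 and 827 at 100 pM and 881 and 1009 at 10 nM (log2 0.25 ± 0.12, 95% interval -0.018 to 0.52). CCND1, which codes for cyclin D1, measured 101 and 87.4 CPM in vehicle, 444 and 365 at 100 pM and 452 and 452 at 10 nM (log2 0.16 ± 0.16, 95% interval -0.22 to 0.53). No interval of a list member that missed the test lay within 0.5 log2 units of 0, so the data do not show that any of them had the same level at both doses.

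Metallothioneins are small proteins that bind zinc and copper. Of the 11 of them in the table, looked up after values were seen, 3 had enough counts to test, and all 3 were higher at 10 nM. The other 8 had at most 2 counts in any library. MT1X measured 0.585 and 0.564 CPM in vehicle, 0.4895 and 0.485 at 100 pM and 5.87 and 11.002 at 10 nM (log2 4.103 ± 0.40, edgeR adjusted p = 0.000106). MT2A measured 3.48 and 3.87 CPM in vehicle, 3.04 and 5.03 at 100 pM and 31.1 and 51.3 at 10 nM (log2 3.36 ± 0.43, edgeR adjusted p = 0.0004703). MT1F, chosen after its values were seen, measured 0.483 and 0.256 CPM in vehicle, 0.465 and 0.543 at 100 pM and 3.02 and 3.16 at 10 nM (log2 2.61 ± 0.35, edgeR adjusted p = 0.000552). The 100 pM libraries were close to vehicle in all 3. MT1X had 20 and 17 counts and MT1F 19 and 19 counts at 100 pM. Metallothionein genes are near-identical copies, and how the counting placed reads that match several of them is not given in the sources used here, so the values of single members are uncertain. Metal response elements, which the zinc sensor MTF1 binds, are known in these promoters. For that reason 90 bases from before the start of MT1X and MT2A are shown, with the core letters TGCGCNC or TGCACNC, or their reverse complements, in capitals. The sequences are from RefSeq (GRCh38.p14, + strand), MT1X at chr16:56682375-56682464 and MT2A at chr16:56608494-56608583.
MT1X: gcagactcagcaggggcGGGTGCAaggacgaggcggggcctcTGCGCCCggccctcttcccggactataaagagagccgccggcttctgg
MT2A: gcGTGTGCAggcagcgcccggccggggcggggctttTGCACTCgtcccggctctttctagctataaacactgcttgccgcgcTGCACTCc
Within the 250 bases before the start MT1X had 4 matches and MT2A had 7. The core is short and common. It was in 29.3% of all 27305 promoter windows of the table (250 bases before to 50 after the start) and in 38.7% of the windows of genes tested. Of the windows of genes higher at 10 nM 43.4% held it, and of those of genes lower 35%. A hormone response element was searched as GNACA and TGTNC with 3 bases between them. It was in 0.388% of all windows and in 19 windows of genes tested (0.17%). It was in 3 windows of genes higher (0.13%) and in 6 of genes lower at 10 nM (0.321%), too few to compare. Its matches shared bases with the metal response core in 4 of all windows. The motifs were chosen after the values were seen, a match describes letters only, and windows were found for 11195 of the 13872 genes.

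Transcription factors of the luminal and alveolar lineage were lower at 10 nM in most cases. Of the 24 tested, 5 were higher at 10 nM, 16 were lower and 3 were not called, with a median log2 of -1.07. Some of these genes were known from earlier results on these libraries, so their direction is not independent evidence. FOXA1, a pioneer factor that opens chromatin for estrogen receptor, measured 377 and 398 CPM in vehicle, 201 and 241 at 100 pM and 53.03 and 69.9 at 10 nM (log2 -1.85 ± 0.19, edgeR adjusted p = 0.000147). TFAP2C, an AP-2 factor, measured 86.2 and 86.1 CPM in vehicle, 79.96 and 80.9 at 100 pM and 25.4 and 24.7 at 10 nM (log2 -1.68 ± 0.12, edgeR adjusted p = 2.27e-05). EHF, an epithelial ETS factor, measured 276 and 391 CPM in vehicle, 549 and 724 at 100 pM and 41.1 and 49.4 at 10 nM (log2 -3.81 ± 0.24, edgeR adjusted p = 1.51e-05). The 100 pM libraries lay just below vehicle for TFAP2C, clearly below it for FOXA1 and above it for EHF, whereas the 10 nM libraries were lowest in each. RUNX1, a Runt-domain factor of luminal cells, measured 24.4 and 22.9 CPM in vehicle, 175 and 205 at 100 pM and 27.2 and 32.05 at 10 nM (log2 -2.68 ± 0.12, edgeR adjusted p = 5.40e-06). RUNX1 at 10 nM was thus close to vehicle and far below 100 pM. GRHL2, a grainyhead factor that maintains epithelium, measured 194 and 201 CPM in vehicle, 620.3 and 555 at 100 pM and 449.6 and 453 at 10 nM (log2 -0.38 ± 0.079, edgeR adjusted p = 0.00537). Here 10 nM remained well above vehicle. GATA3 (log2 -1.52 ± 0.10), the GATA-type repressor TRPS1 (log2 -1.06 ± 0.14) and the ETS factor ELF3 (log2 -1.66 ± 0.28) were lower as well. SOX9, a factor of luminal progenitors, was higher and measured 95.2 and 102 CPM in vehicle, 66.8 and 59.3 at 100 pM and 201 and 215 at 10 nM (log2 1.72 ± 0.16, edgeR adjusted p = 7.84e-05).

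Of the 39 keratin and cell junction genes tested, 9 were higher at 10 nM, 10 were lower and 20 were not called (median log2 -0.33). The shares of 23.1% higher and 25.6% lower stand beside 20.1% and 16.8% of all genes tested. Left-out libraries changed the counts higher and lower to 9 and 7 without 100 pM replicate 1 and 8 and 6 without 10 nM replicate 3. KRT18, a keratin of simple epithelia, measured 1328 and 1205 CPM in vehicle, 1186 and 1100.3 at 100 pM and 627 and 638 at 10 nM (log2 -0.85 ± 0.11, edgeR adjusted p = 0.000512). KRT19 was lower too (log2 -0.67 ± 0.10), and KRT8, the partner of KRT18, was not called (log2 -0.31 ± 0.12, edgeR adjusted p = 0.0758). KRT5, a basal keratin, was low in all libraries and higher at 10 nM (0 and 0.0256 CPM in vehicle, 0.0734 and 0 at 100 pM and 1.52 and 2.003 at 10 nM, log2 5.37 ± 0.93, edgeR adjusted p = 0.002302). It had 3 and 0 counts at 100 pM, so the size of this rise is uncertain. Among desmosome and plakin genes, DSP, which codes for desmoplakin, was lower (log2 -0.96 ± 0.18). PPL, periplakin, measured 189 and 161 CPM in vehicle, 243 and 204 at 100 pM and 744 and 884 at 10 nM (log2 1.87 ± 0.14, edgeR adjusted p = 3.11e-05). The plakophilin gene PKP1 was low in all libraries and higher at 10 nM (0.0763 and 0.154 CPM in vehicle, 0.196 and 0.114 at 100 pM and 3.32 and 5.39 at 10 nM, log2 4.76 ± 0.48, edgeR adjusted p = 0.000123), with 8 and 4 counts at 100 pM. At tight junctions TJP3, a scaffold protein, measured 87.5 and 105 CPM in vehicle, 96.04 and 111 at 100 pM and 49.02 and 53.99 at 10 nM (log2 -1.01 ± 0.12, edgeR adjusted p = 0.000257). CGN, which codes for cingulin, measured 264 and 261 CPM in vehicle, 211 and 203 at 100 pM and 498 and 554 at 10 nM (log2 1.35 ± 0.11, edgeR adjusted p = 3.47e-05). CLDN12, a claudin (log2 0.75 ± 0.075), and the adhesion molecule gene F11R (log2 0.63 ± 0.10) were higher like CGN, and CLDN1 (log2 -0.82 ± 0.24) was lower like TJP3. CLDN1 lost its call without 100 pM replicate 1 or 10 nM replicate 3 (edgeR adjusted p = 0.142 to 0.156).

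All 4 receptors of the ERBB family, which bind EGF-like growth factors, were called lower at 10 nM. Of the 14 tested of 18 listed, 1 was higher at 10 nM, 7 were lower and 6 were not called. The counts higher and lower were 1 and 4 without 100 pM replicate 1, 10 nM replicate 1 or 10 nM replicate 3. ERBB2 measured 473 and 496 CPM in vehicle, 373 and 372 at 100 pM and 226 and 199 at 10 nM (log2 -0.81 ± 0.082, edgeR adjusted p = 0.000127). The other three were EGFR (log2 -0.81 ± 0.22), ERBB3 (log2 -0.30 ± 0.089) and ERBB4 (log2 -0.85 ± 0.18). EGFR lost its call without 100 pM replicate 1, 10 nM replicate 1 or 10 nM replicate 3 (edgeR adjusted p = 0.0734 to 0.0961), ERBB3 lost its call without 100 pM replicate 1, 100 pM replicate 3, 10 nM replicate 1 or 10 nM replicate 3 (edgeR adjusted p = 0.0766 to 0.107), and ERBB4 lost its call without 100 pM replicate 3 (edgeR adjusted p = 0.0556). ERBB2 kept its call with each of the 4 libraries left out in turn. LRIG3, a leucine-rich repeat membrane protein of the same list, measured 129.7 and 204 CPM in vehicle, 256 and 377 at 100 pM and 47.2 and 75.3 at 10 nM (log2 -2.37 ± 0.34, edgeR adjusted p = 0.000859). Of the ligands, EPGN, epigen, was highest at 100 pM, with 3.92 and 2.46 CPM in vehicle, 20.8 and 14.02 at 100 pM and 3.405 and 3.98 at 10 nM (log2 -2.24 ± 0.25, edgeR adjusted p = 0.000232). TGFA, transforming growth factor alpha, was highest at 10 nM, with 18.7 and 17.2 CPM in vehicle, 26.1 and 26.01 at 100 pM and 47.7 and 54.5 at 10 nM (log2 0.97 ± 0.11, edgeR adjusted p = 0.0002304).

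MAP kinase feedback genes act downstream of these receptors. Of the 18 tested, 4 were higher at 10 nM, 5 were lower and 9 were not called, shares of 22.2% higher and 27.8% lower beside 20.1% and 16.8% of all genes tested. DUSP4, a nuclear ERK phosphatase, measured 7.07 and 11.6 CPM in vehicle, 3.57 and 4.74 at 100 pM and 14.1 and 26.996 at 10 nM (log2 2.31 ± 0.34, edgeR adjusted p = 0.000944). DUSP5, also a nuclear ERK phosphatase, measured 34.95 and 37.9 CPM in vehicle, 43.1 and 40.98 at 100 pM and 16.5 and 13.7 at 10 nM (log2 -1.48 ± 0.19, edgeR adjusted p = 0.0004504). DUSP4 was thus raised and DUSP5 lowered at 10 nM, with the libraries apart in both. SPRED2, an inhibitor of RAS signalling, was lower (log2 -0.98 ± 0.09) and DUSP14 higher (log2 1.83 ± 0.25). Of the 22 immediate-early and AP-1 factors tested, 1 was higher at 10 nM, 6 were lower and 15 were not called. The shares of 4.55% higher and 27.3% lower stand beside the same 20.1% and 16.8%. JUNB, an AP-1 subunit, measured 49.04 and 45.5 CPM in vehicle, 59.3 and 49.4 at 100 pM and 13.95 and 13.3 at 10 nM (log2 -1.99 ± 0.21, edgeR adjusted p = 0.0001904). IER2, an immediate-early gene, measured 72.3 and 69.4 CPM in vehicle, 62.95 and 60.2 at 100 pM and 18.2 and 16.4 at 10 nM (log2 -1.83 ± 0.11, edgeR adjusted p = 1.19e-05). In both the 10 nM libraries were lowest. IER5 was the only member called higher at 10 nM (log2 1.88 ± 0.17).

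Of the 23 genes of insulin and IGF signalling tested, 4 were higher at 10 nM, 4 were lower and 15 were not called. The shares of 17.4% in each direction are close to those of all genes tested, 20.1% higher and 16.8% lower. IRS1, the docking protein of both receptors, measured 84.7 and 93.8 CPM in vehicle, 168 and 205 at 100 pM and 68.4 and 90.5 at 10 nM (log2 -1.23 ± 0.24, edgeR adjusted p = 0.00391), so that the 10 nM libraries overlapped vehicle. GRB10, an adaptor that dampens these receptors, measured 101 and 81.2 CPM in vehicle, 142 and 131 at 100 pM and 302 and 299.8 at 10 nM (log2 1.14 ± 0.16, edgeR adjusted p = 0.000666). Of the 33 STAT and cytokine receptor genes tested, 10 were higher at 10 nM (30.3%), 9 were lower (27.3%) and 14 were not called. These counts became 6 and 5 without 100 pM replicate 3, 7 and 5 without 10 nM replicate 1 and 8 and 4 without 10 nM replicate 3, higher before lower. LIFR, the leukaemia inhibitory factor receptor, measured 2.34 and 1.64 CPM in vehicle, 3.06 and 2.71 at 100 pM and 6.78 and 5.44 at 10 nM (log2 1.08 ± 0.20, edgeR adjusted p = 0.00304). JAK1 (log2 0.60 ± 0.10) and STAT3 (log2 0.65 ± 0.09), which act downstream of it, were higher as well, while STAT5A (log2 -1.39 ± 0.46) and STAT6 (log2 -0.93 ± 0.08) were lower. STAT5A lost its call without 100 pM replicate 1, 100 pM replicate 3, 10 nM replicate 1 or 10 nM replicate 3 (edgeR adjusted p = 0.0939 to 0.188). IL20RA, a receptor subunit for interleukin 20, rose in steps, with 17.3 and 20.9 CPM in vehicle, 71.6 and 88.4 at 100 pM and 234 and 285 at 10 nM (log2 1.696 ± 0.14, edgeR adjusted p = 4.30e-05). IL1R1, the interleukin 1 receptor, measured 144 and 92.2 CPM in vehicle, 64.8 and 29.7 at 100 pM and 7.47 and 4.29 at 10 nM (log2 -3.01 ± 0.48, edgeR adjusted p = 0.00152). CISH, a feedback inhibitor induced by STAT5, was lower (log2 -1.65 ± 0.24).

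Of the 27 NF-kB pathway genes tested, 5 were higher at 10 nM, 1 was lower and 21 were not called, a called share of 22.2% beside 37% of all genes. This low share depended on the fit. With the replicate number as a block 12 of the 27 were higher and 5 lower, and 8231 of all 13872 genes were called. TRAF5, an adaptor of TNF family receptors, measured 25.1 and 26.2 CPM in vehicle, 25.5 and 25.8 at 100 pM and 143 and 176 at 10 nM (log2 2.63 ± 0.12, edgeR adjusted p = 5.40e-06). TNFRSF21, a death-domain receptor, measured 41.4 and 50.3 CPM in vehicle, 33.1 and 37.98 at 100 pM and 147 and 149 at 10 nM (log2 2.06 ± 0.17, edgeR adjusted p = 4.55e-05). In both the 100 pM libraries lay close to vehicle or somewhat below it. BCL3, a nuclear partner of NF-kB subunits, was lower (log2 -1.79 ± 0.23).

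Notch signals pass from a ligand on 1 cell to a receptor on its neighbour, and the 3 ligands called were higher at 10 nM while the 1 receptor called was lower. Of the 21 genes tested of 24 listed, 7 were higher at 10 nM, 4 were lower and 10 were not called. In the same order, higher before lower, the counts were 4 and 3 without 100 pM replicate 1. The ligand DLL4 measured 0.305 and 0.205 CPM in vehicle, 0.343 and 0.314 at 100 pM and 6.09 and 6.23 at 10 nM (log2 4.21 ± 0.33, edgeR adjusted p = 3.34e-05), with 14 and 11 counts at 100 pM. The ligand JAG1 measured 7.28 and 5.46 CPM in vehicle, 19.8 and 19.9 at 100 pM and 64.9 and 55.1 at 10 nM (log2 1.598 ± 0.18, edgeR adjusted p = 0.000264). NOTCH3, a receptor, measured 409 and 431 CPM in vehicle, 363 and 354 at 100 pM and 147 and 153 at 10 nM (log2 -1.26 ± 0.085, edgeR adjusted p = 1.76e-05). The 10 nM libraries were thus highest for both ligands and lowest for the receptor. The third ligand called was DLL1 (log2 1.87 ± 0.47). DLL1 lost its call without 100 pM replicate 1 or 10 nM replicate 3 (edgeR adjusted p = 0.0844 to 0.0859). MAML2, a coactivator of Notch transcription, measured 50.98 and 46.7 CPM in vehicle, 36.5 and 34.6 at 100 pM and 12.4 and 12.4 at 10 nM (log2 -1.52 ± 0.082, edgeR adjusted p = 7.07e-06). Its relatives MAML1 (log2 0.23 ± 0.066) and MAML3 (log2 0.65 ± 0.15) were higher. MAML1 lost its call without 100 pM replicate 1, 100 pM replicate 3, 10 nM replicate 1 or 10 nM replicate 3 (edgeR adjusted p = 0.05496 to 0.158), and MAML3 lost its call without 100 pM replicate 1 or 10 nM replicate 3 (edgeR adjusted p = 0.05202 to 0.0567). Of the target genes HEY2 was higher (log2 1.62 ± 0.25), and the repressor genes HES1 (log2 -1.18 ± 0.16) and HES4 (log2 -0.53 ± 0.13) were lower. HES4 lost its call without 100 pM replicate 1 or 10 nM replicate 1 (edgeR adjusted p = 0.0634 to 0.0662).

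Wnt pathway genes were called in 15 of 30 tested cases, of which 10 were higher and 5 lower (median log2 0.24). WNT7B, a ligand, measured 60.4 and 53.9 CPM in vehicle, 60.02 and 51.5 at 100 pM and 139 and 159 at 10 nM (log2 1.42 ± 0.13, edgeR adjusted p = 8.23e-05). Its receptors, the frizzled family, had members called in each direction, with FZD1 (log2 1.04 ± 0.11), FZD7 (log2 1.21 ± 0.18) and FZD8 (log2 0.93 ± 0.24) higher, and FZD2 (log2 -1.33 ± 0.15) and FZD4 (log2 -0.82 ± 0.10) lower. FZD8 lost its call without 100 pM replicate 1, 100 pM replicate 3 or 10 nM replicate 3 (edgeR adjusted p = 0.0542 to 0.0938). RNF43 and ZNRF3, related ubiquitin ligases that remove frizzled receptors from the surface, also differed in direction. RNF43 measured 24.1 and 25.5 CPM in vehicle, 21.4 and 25.3 at 100 pM and 2.16 and 4.12 at 10 nM (log2 -2.897 ± 0.30, edgeR adjusted p = 0.000158). ZNRF3 measured 13.2 and 11.4 CPM in vehicle, 12.8 and 13.02 at 100 pM and 23.2 and 20.1 at 10 nM (log2 0.75 ± 0.12, edgeR adjusted p = 0.00147). TCF7L1, a transcription factor of the pathway, measured 34.8 and 41.3 CPM in vehicle, 24.1 and 23.2 at 100 pM and 101 and 111 at 10 nM (log2 2.16 ± 0.11, edgeR adjusted p = 6.03e-06). The feedback genes AXIN2 and NKD1, which canonical Wnt signals are known to induce, were low in all libraries and higher at 10 nM. AXIN2 measured 0.5596 and 0.333 CPM in vehicle, 0.318 and 0.257 at 100 pM and 2.21 and 1.89 at 10 nM (log2 2.81 ± 0.47, edgeR adjusted p = 0.00178). NKD1 measured 0.203 and 0.333 CPM in vehicle, 0.0979 and 0.143 at 100 pM and 1.16 and 0.7899 at 10 nM (log2 2.9998 ± 0.46, edgeR adjusted p = 0.00111). At 100 pM AXIN2 had 13 and 9 counts and NKD1 4 and 5.

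In the TGF-beta and BMP pathways ligands act through paired receptors and SMAD proteins. Of the 34 genes tested, 7 were higher at 10 nM (20.6%), 11 were lower (32.4%) and 16 were not called. Over all genes tested the shares were 20.1% and 16.8%. Left-out libraries changed the counts higher and lower to 6 and 5 without 100 pM replicate 3 and 7 and 6 without 10 nM replicate 1. The ligand TGFB2 measured 81.7 and 62.5 CPM in vehicle, 36.7 and 29.8 at 100 pM and 6.12 and 4.51 at 10 nM (log2 -2.65 ± 0.23, edgeR adjusted p = 5.90e-05). INHBB, a subunit of activin B and inhibin B, measured 236 and 192 CPM in vehicle, 258 and 193 at 100 pM and 733 and 545 at 10 nM (log2 1.501 ± 0.22, edgeR adjusted p = 0.0008801). The receptor genes TGFBR1 (log2 0.98 ± 0.12) and ACVR1 (log2 1.32 ± 0.15) and the coreceptor gene TGFBR3 (log2 1.72 ± 0.22) were higher. TGFBR2 was called higher from very low levels, with 0 and 0.0286 CPM at 100 pM and 0.166 and 0.226 at 10 nM, from 0 and 1 counts at 100 pM. TGFBR2 lost its call without 100 pM replicate 1 (edgeR adjusted p = 0.05004). The BMP receptor genes BMPR1B (log2 -2.62 ± 0.53) and BMPR1A (log2 -0.32 ± 0.075) were lower, BMPR1B with 18 and 24 counts at 10 nM. BMPR1A lost its call without 100 pM replicate 3 or 10 nM replicate 1 (edgeR adjusted p = 0.0628 to 0.0828). The inhibitors of differentiation, which BMP signals are known to induce, did not move together. ID3 measured 51.3 and 50.6 CPM in vehicle, 48.8 and 35.98 at 100 pM and 12.9 and 6.85 at 10 nM (log2 -2.103 ± 0.27, edgeR adjusted p = 0.0004504). ID2 measured 12.7 and 18.1 CPM in vehicle, 5.68 and 6.94 at 100 pM and 62.5 and 32.4 at 10 nM (log2 2.91 ± 0.49, edgeR adjusted p = 0.00198). ID1 (log2 -2.58 ± 0.68) and ID4 (log2 -1.04 ± 0.28) were lower like ID3. ID1 lost its call without 100 pM replicate 3, 10 nM replicate 1 or 10 nM replicate 3 (edgeR adjusted p = 0.0709 to 0.0936), and ID4 lost its call without 100 pM replicate 1, 100 pM replicate 3, 10 nM replicate 1 or 10 nM replicate 3 (edgeR adjusted p = 0.05803 to 0.113).

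**Figure D3:**
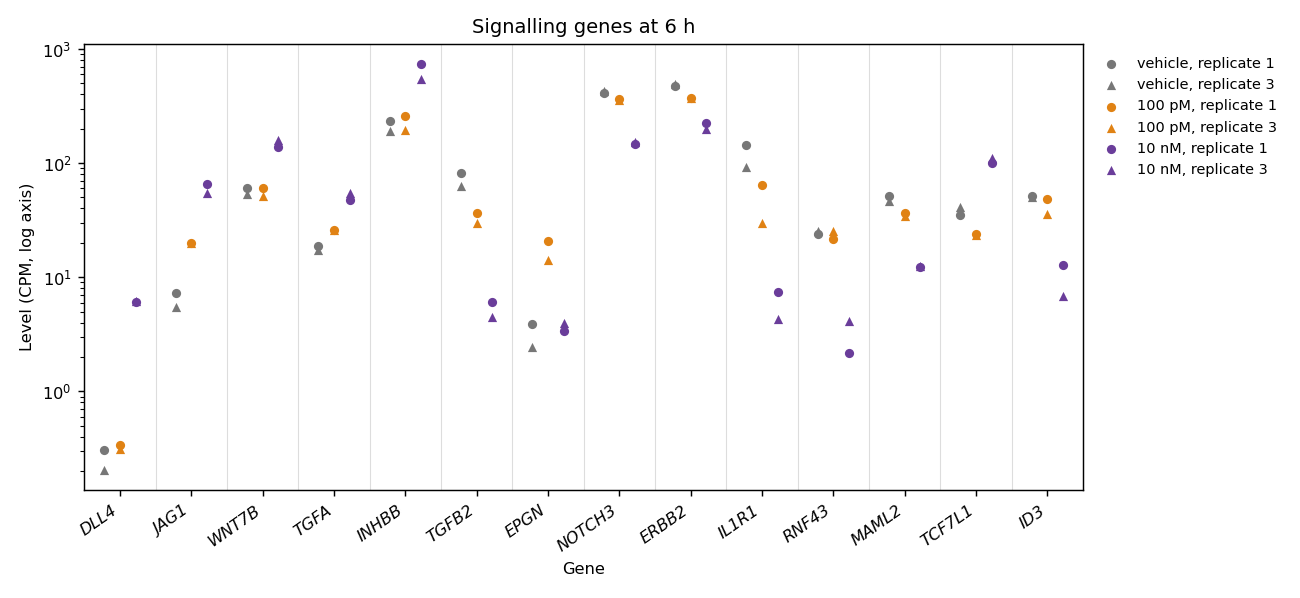
Levels of 14 signalling genes, ordered as ligands, receptors, regulators and targets, in the 6 libraries of 6 h, in CPM on a log axis, with vehicle in grey, 100 pM in orange and 10 nM in purple, circles for replicate 1 and triangles for replicate 3. DLL4, JAG1, WNT7B, TGFA, INHBB and TCF7L1 lie highest at 10 nM, TGFB2, NOTCH3, ERBB2, IL1R1, RNF43, MAML2 and ID3 lowest, and EPGN highest at 100 pM.

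MYC, a transcription factor that drives cell growth, was higher at 10 nM, with 32.8 and 31.8 CPM in vehicle, 39.97 and 24.4 at 100 pM and 121 and 94.1 at 10 nM (log2 1.74 ± 0.33, edgeR adjusted p = 0.00391). Vehicle and 100 pM overlapped. MYCN, its relative, was low in all libraries and higher at 10 nM, with 0.305 and 0.307 CPM in vehicle, 0.0979 and 0.0571 at 100 pM and 0.692 and 0.395 at 10 nM (log2 2.74 ± 0.47, edgeR adjusted p = 0.00215) and 4 and 2 counts at 100 pM. Of the 17 genes of the MYC and MAX network tested, 3 were higher at 10 nM, 1 was lower and 13 were not called. Their called share was 23.5%, beside 37% of all genes. The counts higher and lower were 2 and 0 without 100 pM replicate 3.

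Genes of ribosome assembly, which MYC is known to activate, were higher at 10 nM in most cases. Of the 57 nucleolar assembly factors tested, 49 were higher at 10 nM, 0 were lower and 8 were not called. That is a called share of 86% with a median log2 of 0.78, and the called members ran from 0.36 to 1.87. Ribosome assembly was already known to be higher from earlier results on these libraries with an overlapping list, so the count is not independent of that. NOP16, a nucleolar protein, measured 13.2 and 12.1 CPM in vehicle, 14.7 and 11.6 at 100 pM and 50.8 and 45.6 at 10 nM (log2 1.87 ± 0.16, edgeR adjusted p = 6.01e-05). RRP12, an export factor of preribosomes, measured 81.4 and 68.3 CPM in vehicle, 82.2 and 63.3 at 100 pM and 244 and 217 at 10 nM (log2 1.66 ± 0.20, edgeR adjusted p = 0.000309). DKC1, the pseudouridine synthase dyskerin, measured 67.7 and 65.2 CPM in vehicle, 62.4 and 58.6 at 100 pM and 153 and 140.3 at 10 nM (log2 1.28 ± 0.082, edgeR adjusted p = 1.42e-05). In all 3 the 100 pM libraries lay close to vehicle and the 10 nM libraries above both. NPM1, nucleophosmin, was not called (log2 0.13 ± 0.14, 95% interval -0.18 to 0.45). Of the 37 genes for RNA polymerases I and III, which make ribosomal and transfer RNA, 19 were higher at 10 nM, 2 were lower and 16 were not called (median log2 0.46). GTF3A, the factor of 5S RNA genes, measured 24.2 and 22.8 CPM in vehicle, 25.5 and 26.6 at 100 pM and 55.2 and 58.1 at 10 nM (log2 1.12 ± 0.094, edgeR adjusted p = 4.75e-05). The polymerase I subunit gene POLR1E was higher too (log2 1.09 ± 0.10).

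The E-box CACGTG, the site that MYC with its partner MAX and several related factors bind, was searched in the same promoter windows after the values of the nucleolar genes were seen. It reads the same on both strands. Its matches shared bases with the metal response core in 120 of all windows and 3 of the nucleolar ones, and with the hormone element in 0. It was in 20 of the 48 nucleolar assembly genes with a window (41.7%), against 9.91% of the windows of genes tested and 7.43% of all windows. The share was 11.9% for genes higher and 8.01% for genes lower at 10 nM, and 5.56% for cytosolic ribosomal proteins. A match describes letters only and does not depend on the dose. Whether MYC had a part in these rises was not tested. Members of a single chromosome were left out of the choice of stretches, so a member with a larger change may have been passed over. Among the others, the 3 members with the largest log2 fold change and a match before the start were taken. The stretches shown have the E-box in capitals. They are from RefSeq (GRCh38.p14, + strand): IMP4 at chr2:130342652-130342741, CIRH1A (UTP4) at chr16:69132559-69132648 and NAT10 at chr11:34105539-34105628.
IMP4: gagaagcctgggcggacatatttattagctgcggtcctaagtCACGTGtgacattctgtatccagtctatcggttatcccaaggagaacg
CIRH1A: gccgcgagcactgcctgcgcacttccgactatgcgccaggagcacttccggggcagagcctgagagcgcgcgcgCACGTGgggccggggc
NAT10: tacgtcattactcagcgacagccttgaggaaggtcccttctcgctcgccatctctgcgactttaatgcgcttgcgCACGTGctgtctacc
IMP4, part of the small subunit processome, measured 26.1 and 23.03 CPM in vehicle, 25.6 and 21.6 at 100 pM and 47.2 and 44.7 at 10 nM (log2 0.96 ± 0.14, edgeR adjusted p = 0.000967). CIRH1A, a subunit of the same complex, measured 34.1 and 29.9 CPM in vehicle, 33.7 and 30.1 at 100 pM and 56.9 and 55.1 at 10 nM (log2 0.81 ± 0.11, edgeR adjusted p = 0.000467). NAT10, which acetylates cytidine in RNA, measured 78.4 and 79.1 CPM in vehicle, 71.4 and 65.8 at 100 pM and 128 and 111 at 10 nM (log2 0.80 ± 0.091, edgeR adjusted p = 0.000232). In all 3 the 10 nM libraries lay above the other 4 libraries of 6 h.

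The proteins of the finished ribosome were not called. Of the 68 cytosolic ribosomal protein genes tested, 0 were higher at 10 nM, 0 were lower and 68 were not called (median log2 -0.017, range -0.27 to 0.45) by edgeR, and DESeq2 called 1, as lower. Of them 1 had an unadjusted p under 0.05. Ribosomal protein genes have many processed copies in the genome, and how reads that match them were counted is not given in the sources used here. Of the 22 genes of aminoacyl tRNA synthetases and their scaffold, which load amino acids onto transfer RNA, 15 were higher at 10 nM, 0 were lower and 7 were not called (median log2 0.54). These counts became 8 and 0 without 100 pM replicate 3 and 9 and 0 without 10 nM replicate 1, higher before lower. AIMP2, a scaffold of the synthetase complex, measured 30.6 and 21.7 CPM in vehicle, 30.7 and 20.4 at 100 pM and 79.5 and 70.97 at 10 nM (log2 1.56 ± 0.27, edgeR adjusted p = 0.00246). YARS, the tyrosine enzyme, measured 70.1 and 49.3 CPM in vehicle, 68.5 and 48.001 at 100 pM and 142 and 124 at 10 nM (log2 1.19 ± 0.24, edgeR adjusted p = 0.00471). Of the 22 amino acid transporters tested, 6 were higher at 10 nM (27.3%), 3 were lower (13.6%) and 13 were not called. Over all genes tested the shares were 20.1% and 16.8%. In the same order, higher before lower, the counts were 4 and 1 without 100 pM replicate 3 or 10 nM replicate 1. SLC1A4, which carries alanine, serine and cysteine, measured 22.9 and 25.3 CPM in vehicle, 30.03 and 29.1 at 100 pM and 103 and 110.1 at 10 nM (log2 1.85 ± 0.11, edgeR adjusted p = 9.19e-06). SLC1A2, a glutamate transporter, was lower (log2 -1.81 ± 0.32).

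**Figure D4:**
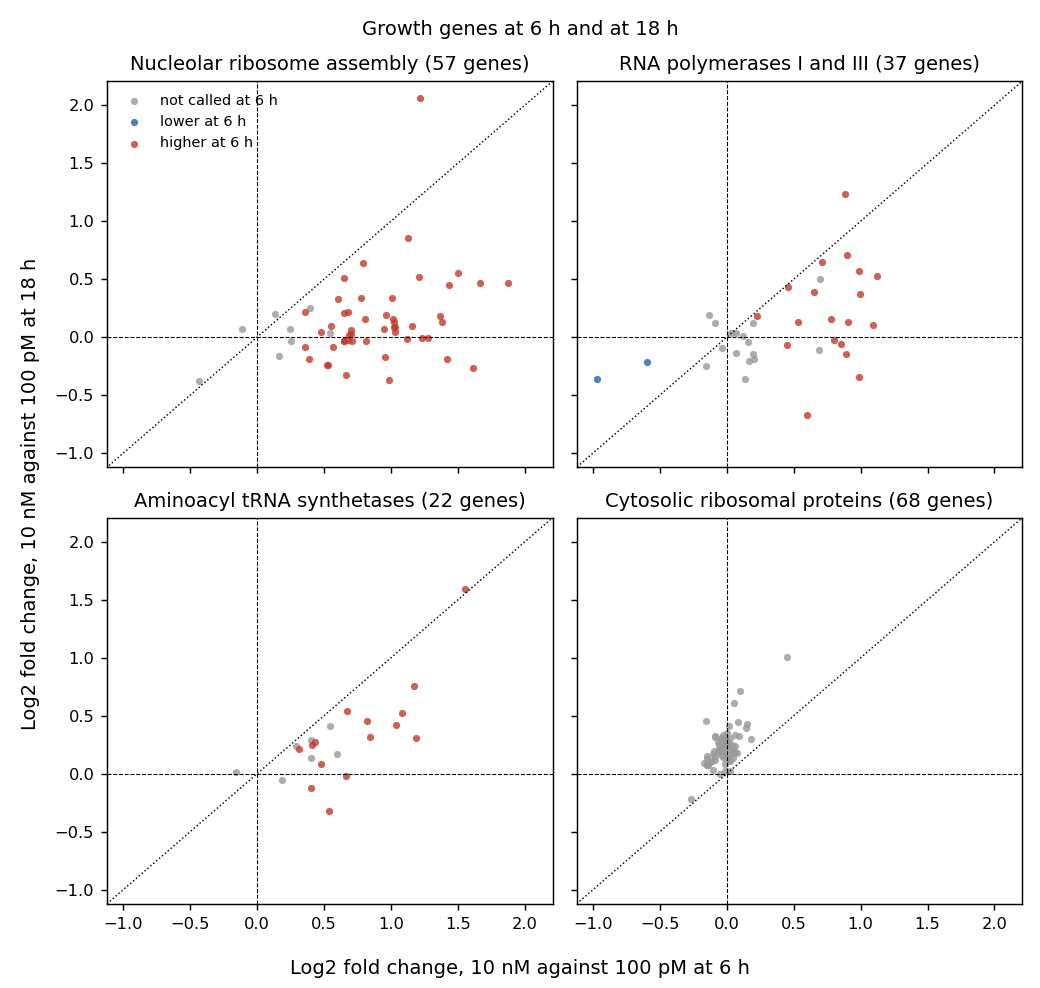
Log2 fold change of 10 nM against 100 pM at 6 h (x axis) and at 18 h (y axis) for the members of 4 growth lists, 1 point per gene and 1 panel per list, with dashed lines at 0 and the diagonal dotted. Red, blue and grey points are genes called higher, called lower and not called at 6 h. Most of the 57 nucleolar assembly genes lie to the right of 0 at 6 h and near 0 at 18 h, and the 68 ribosomal protein genes lie near 0 at 6 h.

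Genes of protein folding were mostly higher where they were called. Of the 36 genes of the unfolded protein response and ER secretion tested, 13 were higher at 10 nM, 3 were lower and 20 were not called. Left-out libraries changed the counts higher and lower to 9 and 0 without 100 pM replicate 3. MANF, a secreted factor of ER stress, measured 20.9 and 24.7 CPM in vehicle, 22.2 and 25.5 at 100 pM and 98.3 and 104 at 10 nM (log2 2.09 ± 0.14, edgeR adjusted p = 1.76e-05). HYOU1, an ER chaperone, measured 248 and 250.3 CPM in vehicle, 273 and 251 at 100 pM and 505 and 539 at 10 nM (log2 0.997 ± 0.11, edgeR adjusted p = 0.000206). CREB3L2, a membrane-bound transcription factor of secretory cells, measured 88.4 and 109.9 CPM in vehicle, 180.4 and 193 at 100 pM and 356 and 362 at 10 nM (log2 0.94 ± 0.14, edgeR adjusted p = 0.000892). The 10 nM libraries were highest in all 3. XBP1, the factor that splicing by IRE1 activates, was highest at 100 pM, with 438 and 682 CPM in vehicle, 1045 and 1377 at 100 pM and 534 and 665 at 10 nM (log2 -1.01 ± 0.25, edgeR adjusted p = 0.0129). XBP1 lost its call without 100 pM replicate 3 or 10 nM replicate 1 (edgeR adjusted p = 0.0902 to 0.0956).

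Of the 24 ATF4 targets tested, 7 were higher at 10 nM, 1 was lower and 16 were not called. Their called share was 33.3%, beside 37% of all genes. The counts higher and lower were 4 and 1 without 100 pM replicate 3. PCK2, an enzyme of mitochondrial metabolism, measured 23.3 and 19.01 CPM in vehicle, 25.2 and 20.4 at 100 pM and 56.9 and 59.04 at 10 nM (log2 1.35 ± 0.18, edgeR adjusted p = 0.000568). CEBPG, a partner of ATF4, was higher (log2 1.28 ± 0.27). Of the 30 cytosolic chaperones tested, 15 were higher at 10 nM, 2 were lower and 13 were not called (median log2 0.41). These counts became 9 and 1 without 100 pM replicate 3, higher before lower. CCT3, a subunit of the chaperonin that folds actin and tubulin, measured 246 and 245 CPM in vehicle, 255 and 236 at 100 pM and 486 and 480.4 at 10 nM (log2 0.98 ± 0.10, edgeR adjusted p = 0.000146). BAG3, a partner of HSP70 chaperones, was higher as well (log2 1.09 ± 0.22).

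In metabolism, glycolysis and hypoxia genes were called higher more often than lower. Of the 38 tested, 13 were higher at 10 nM, 2 were lower and 23 were not called (median log2 0.30). That is 34.2% higher and 5.26% lower, against 20.1% and 16.8% of all genes tested. PFKFB3, which makes an activator of glycolysis, measured 71.9 and 62.5 CPM in vehicle, 183 and 149 at 100 pM and 748 and 738 at 10 nM (log2 2.16 ± 0.26, edgeR adjusted p = 0.000326). CA12, a carbonic anhydrase at the cell surface, measured 91.8 and 97.9 CPM in vehicle, 147 and 156 at 100 pM and 532 and 526 at 10 nM (log2 1.81 ± 0.09, edgeR adjusted p = 6.31e-06). P4HA2, a collagen prolyl hydroxylase, measured 35.002 and 27.2 CPM in vehicle, 77.5 and 54.1 at 100 pM and 259.7 and 307 at 10 nM (log2 2.11 ± 0.27, edgeR adjusted p = 0.000474). All 3 stepped up from vehicle to 100 pM and from there to 10 nM. SLC2A1, the glucose transporter GLUT1 (log2 1.04 ± 0.17), and LDHA, lactate dehydrogenase A (log2 0.79 ± 0.17), were higher. NDRG1, a hypoxia-induced gene, was highest at 100 pM, with 103 and 124 CPM in vehicle, 460.2 and 541 at 100 pM and 275 and 289 at 10 nM (log2 -0.83 ± 0.13, edgeR adjusted p = 0.00114).

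Of the 31 genes of cholesterol synthesis and its control tested, 6 were higher at 10 nM, 2 were lower and 23 were not called (median log2 0.40). The shares of 19.4% higher and 6.45% lower stand beside 20.1% and 16.8% of all genes tested. SCAP, which escorts the SREBP factors to the Golgi, measured 66.7 and 67.4 CPM in vehicle, 71.4 and 71.05 at 100 pM and 154 and 165 at 10 nM (log2 1.16 ± 0.071, edgeR adjusted p = 1.19e-05). INSIG2, which holds SCAP in the ER, measured 42.4 and 39.6 CPM in vehicle, 34.5 and 31.4 at 100 pM and 14.3 and 12.1 at 10 nM (log2 -1.31 ± 0.13, edgeR adjusted p = 0.000123). The pair thus differed in direction. SREBF1, which codes for SREBP1 (log2 1.64 ± 0.33), and the biosynthetic enzyme gene DHCR7 (log2 1.897 ± 0.39) were higher. Of the 31 fatty acid and lipid storage genes tested 32.3% were called, against 37% of all genes. Among them 6 were higher at 10 nM, 4 were lower and 21 were not called. In the same order, higher before lower, the counts were 4 and 2 without 100 pM replicate 1 or 10 nM replicate 3, 5 and 1 without 100 pM replicate 3 and 6 and 0 without 10 nM replicate 1. With upper-quartile scaling 5 were higher and 9 lower, and with the stricter filter 5 and 7. ACLY, which makes cytosolic acetyl-CoA, was higher (log2 0.80 ± 0.13). Of the 24 steroid metabolising and CYP enzymes tested, 7 were higher at 10 nM, 5 were lower and 12 were not called. Left-out libraries changed the counts higher and lower to 5 and 2 without 10 nM replicate 1 and 3 and 3 without 10 nM replicate 3. SRD5A1, a steroid 5-alpha-reductase, measured 11.5 and 9.298 CPM in vehicle, 13.5 and 11.1 at 100 pM and 28.5 and 27.3 at 10 nM (log2 1.18 ± 0.19, edgeR adjusted p = 0.00144). SULT2B1, a sulfotransferase for cholesterol and other hydroxysteroids, measured 25.9 and 36.6 CPM in vehicle, 49.96 and 62.8 at 100 pM and 17.6 and 19.6 at 10 nM (log2 -1.599 ± 0.22, edgeR adjusted p = 0.000652).

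In the lists of the cell cycle, as in several other lists, the count of calls depended on whether the replicate number entered the fit. Of the 41 DNA replication genes tested, 1 was higher at 10 nM, 0 were lower and 40 were not called (median log2 -0.13). The counts higher and lower were 0 and 0 without 100 pM replicate 1, 100 pM replicate 3 or 10 nM replicate 3. Of the 42 mitosis genes, 0 were higher at 10 nM, 3 were lower and 39 were not called (median log2 -0.39). These are called shares of 2.44% and 7.14%, against 37% of all genes. With the replicate number as a block, which raised the calls over all genes to 8231, 3 replication genes were higher and 5 lower, and 2 mitosis genes were higher and 16 lower. MKI67, a proliferation marker, measured 63.3 and 72.1 CPM in vehicle, 64.8 and 82.3 at 100 pM and 50.6 and 65.4 at 10 nM (log2 -0.34 ± 0.38, 95% interval -1.201 to 0.52), and the libraries of the doses overlapped. ASPM, a spindle protein, was 1 of the 3 called, with 119.9 and 97.9 CPM in vehicle, 111 and 117 at 100 pM and 28.01 and 28.2 at 10 nM (log2 -2.02 ± 0.19, edgeR adjusted p = 8.23e-05). Of the 26 G1 regulators tested 30.8% were called, against the 37% of all genes. Among them 6 were higher at 10 nM, 2 were lower and 18 were not called. These counts became 3 and 0 without 100 pM replicate 3 or 10 nM replicate 1, higher before lower. CDKN1C, the CDK inhibitor p57, measured 3.59 and 1.84 CPM in vehicle, 4.36 and 1.91 at 100 pM and 22.005 and 20.9 at 10 nM (log2 2.77 ± 0.60, edgeR adjusted p = 0.00699). CDKN1C lost its call without 100 pM replicate 3 (edgeR adjusted p = 0.050001).

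In the BCL2 family, which sets the threshold for apoptosis, 7 were higher at 10 nM, 2 were lower and 11 were not called of 20 tested. The higher genes included a killer and a protector. BCL2L11, which codes for the killer BIM, measured 45.2 and 32.4 CPM in vehicle, 34.7 and 24.02 at 100 pM and 93.3 and 84.9 at 10 nM (log2 1.6003 ± 0.24, edgeR adjusted p = 0.000966). BCL2L1, which codes for the protector BCL-XL, measured 272 and 294 CPM in vehicle, 467 and 446 at 100 pM and 702 and 715 at 10 nM (log2 0.63 ± 0.11, edgeR adjusted p = 0.00223). MCL1, a short-lived protector, was highest at 100 pM and measured 465 and 386 CPM in vehicle, 875 and 729 at 100 pM and 418 and 342 at 10 nM (log2 -1.08 ± 0.17, edgeR adjusted p = 0.00121).

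Interferon-stimulated genes were mostly lower where called, and the count depended on which libraries were used. Of the 48 tested, 2 were higher at 10 nM, 15 were lower and 31 were not called (median log2 -0.70). The called share of 35.4% was close to the 37% of all genes. By direction it was 4.17% higher and 31.2% lower, against 20.1% and 16.8%. In the same order, higher before lower, the counts were 0 and 11 without 100 pM replicate 1, 1 and 3 without 100 pM replicate 3, 1 and 4 without 10 nM replicate 1 and 0 and 6 without 10 nM replicate 3. TRIM25, a ubiquitin ligase of antiviral signalling, measured 188 and 202 CPM in vehicle, 109.7 and 129 at 100 pM and 52.3 and 57.1 at 10 nM (log2 -1.13 ± 0.095, edgeR adjusted p = 4.97e-05). PARP9, a PARP family protein, measured 30.4 and 28.99 CPM in vehicle, 69.5 and 94.9 at 100 pM and 24.4 and 34.5 at 10 nM (log2 -1.48 ± 0.22, edgeR adjusted p = 0.000914). PARP9 was highest at 100 pM and TRIM25 in vehicle. DDX58, which codes for the RNA sensor RIG-I, was lower too (log2 -1.46 ± 0.25). Of the 21 genes of MHC class I presentation, which interferons are known to induce, 0 were higher at 10 nM, 2 were lower and 19 were not called. Left-out libraries changed the counts higher and lower to 0 and 1 without 100 pM replicate 1 and 0 and 0 without 100 pM replicate 3, 10 nM replicate 1 or 10 nM replicate 3.

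At the cell surface, genes of axon guidance, ligands and receptors that also act between epithelial cells, were lower more often than higher. Of the 44 tested of 51 listed, 7 were higher at 10 nM, 13 were lower and 24 were not called (median log2 -0.25). That is 15.9% higher and 29.5% lower, against 20.1% and 16.8% of all genes tested. The counts higher and lower were 4 and 9 without 100 pM replicate 3 and 4 and 8 without 10 nM replicate 1. SEMA3C, a secreted semaphorin, measured 149 and 129.6 CPM in vehicle, 167 and 153 at 100 pM and 37.4 and 32.2 at 10 nM (log2 -2.201 ± 0.11, edgeR adjusted p = 6.33e-06). EPHA4, an ephrin receptor, measured 127 and 109.6 CPM in vehicle, 88.8 and 85.4 at 100 pM and 12.5 and 16.2 at 10 nM (log2 -2.603 ± 0.18, edgeR adjusted p = 2.09e-05). EFNA3, an ephrin, measured 63.7 and 67.2 CPM in vehicle, 76.4 and 65.05 at 100 pM and 268 and 257 at 10 nM (log2 1.89 ± 0.14, edgeR adjusted p = 2.23e-05). The receptor and the ligand thus differed in direction. Among other ephrin receptors EPHA1 (log2 -0.85 ± 0.12) and EPHB3 (log2 -1.82 ± 0.14) were lower and EPHB4 higher (log2 1.01 ± 0.15).

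Of the 34 integrin and matrix genes tested, 2 were higher at 10 nM, 10 were lower and 22 were not called (median log2 -0.37). The shares of 5.88% higher and 29.4% lower stand beside 20.1% and 16.8% of all genes tested. THBS1, thrombospondin 1, measured 142 and 165 CPM in vehicle, 579.6 and 711 at 100 pM and 166 and 189 at 10 nM (log2 -1.86 ± 0.16, edgeR adjusted p = 5.34e-05). LAMA3, a laminin chain of epithelial basement membrane, measured 16.2 and 19.2 CPM in vehicle, 70.4 and 89.4 at 100 pM and 37.6 and 40.8 at 10 nM (log2 -1.03 ± 0.13, edgeR adjusted p = 0.000488). Both were highest at 100 pM. Of the 37 actin, focal adhesion and YAP target genes tested, 11 were higher at 10 nM (29.7%), 6 were lower (16.2%) and 20 were not called. VCL, vinculin, measured 308 and 257 CPM in vehicle, 381 and 269 at 100 pM and 1536 and 1589 at 10 nM (log2 2.27 ± 0.18, edgeR adjusted p = 4.35e-05). Its focal adhesion partners ACTN1 (log2 1.69 ± 0.35) and PXN, paxillin (log2 0.98 ± 0.12), were higher. RND1, a small GTPase, measured 44.6 and 36.6 CPM in vehicle, 34.9 and 34.7 at 100 pM and 7.003 and 4.96 at 10 nM (log2 -2.54 ± 0.25, edgeR adjusted p = 0.000123). Of the 38 proteases and SERPINs tested 28.9% were called, against 37% of all genes. Among them 6 were higher at 10 nM, 5 were lower and 27 were not called. These counts became 5 and 1 without 10 nM replicate 1, higher before lower. TMPRSS2, a membrane serine protease and known target of the androgen receptor, measured 4.93 and 5.79 CPM in vehicle, 9.18 and 8.28 at 100 pM and 46.4 and 40.3 at 10 nM (log2 2.31 ± 0.16, edgeR adjusted p = 1.99e-05).

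Circadian clock genes, some of which respond to steroid hormones, were lower more often than higher. Of the 21 tested, 2 were higher at 10 nM, 7 were lower and 12 were not called. That is 9.52% higher and 33.3% lower, against 20.1% and 16.8% of all genes tested. In the same order, higher before lower, the counts were 1 and 4 without 100 pM replicate 1 or 10 nM replicate 3. BHLHE40, a clock repressor, measured 115 and 104 CPM in vehicle, 147 and 150.5 at 100 pM and 55.1 and 46.5 at 10 nM (log2 -1.55 ± 0.11, edgeR adjusted p = 2.20e-05). TEF, an output factor of the clock, was lower like PER1 above (log2 -0.95 ± 0.10). Of the 32 ion and water transport genes tested of 37 listed, 5 were higher at 10 nM (15.6%) and 11 were lower (34.4%). The other 16 were not called, and the median log2 of the list was -0.28. KCNK5, a potassium channel, measured 20.9 and 15.4 CPM in vehicle, 5.73 and 4.03 at 100 pM and 1.38 and 1.38 at 10 nM (log2 -1.82 ± 0.32, edgeR adjusted p = 0.00247). AQP3, a water and glycerol channel, measured 4.04 and 4.303 CPM in vehicle, 12.2 and 13.02 at 100 pM and 6.64 and 6.18 at 10 nM (log2 -0.98 ± 0.19, edgeR adjusted p = 0.00356). AQP3 was highest at 100 pM and KCNK5 in vehicle. WNK1, a kinase that controls salt cotransporters, was higher (log2 1.01 ± 0.16).

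**Figure D5:**
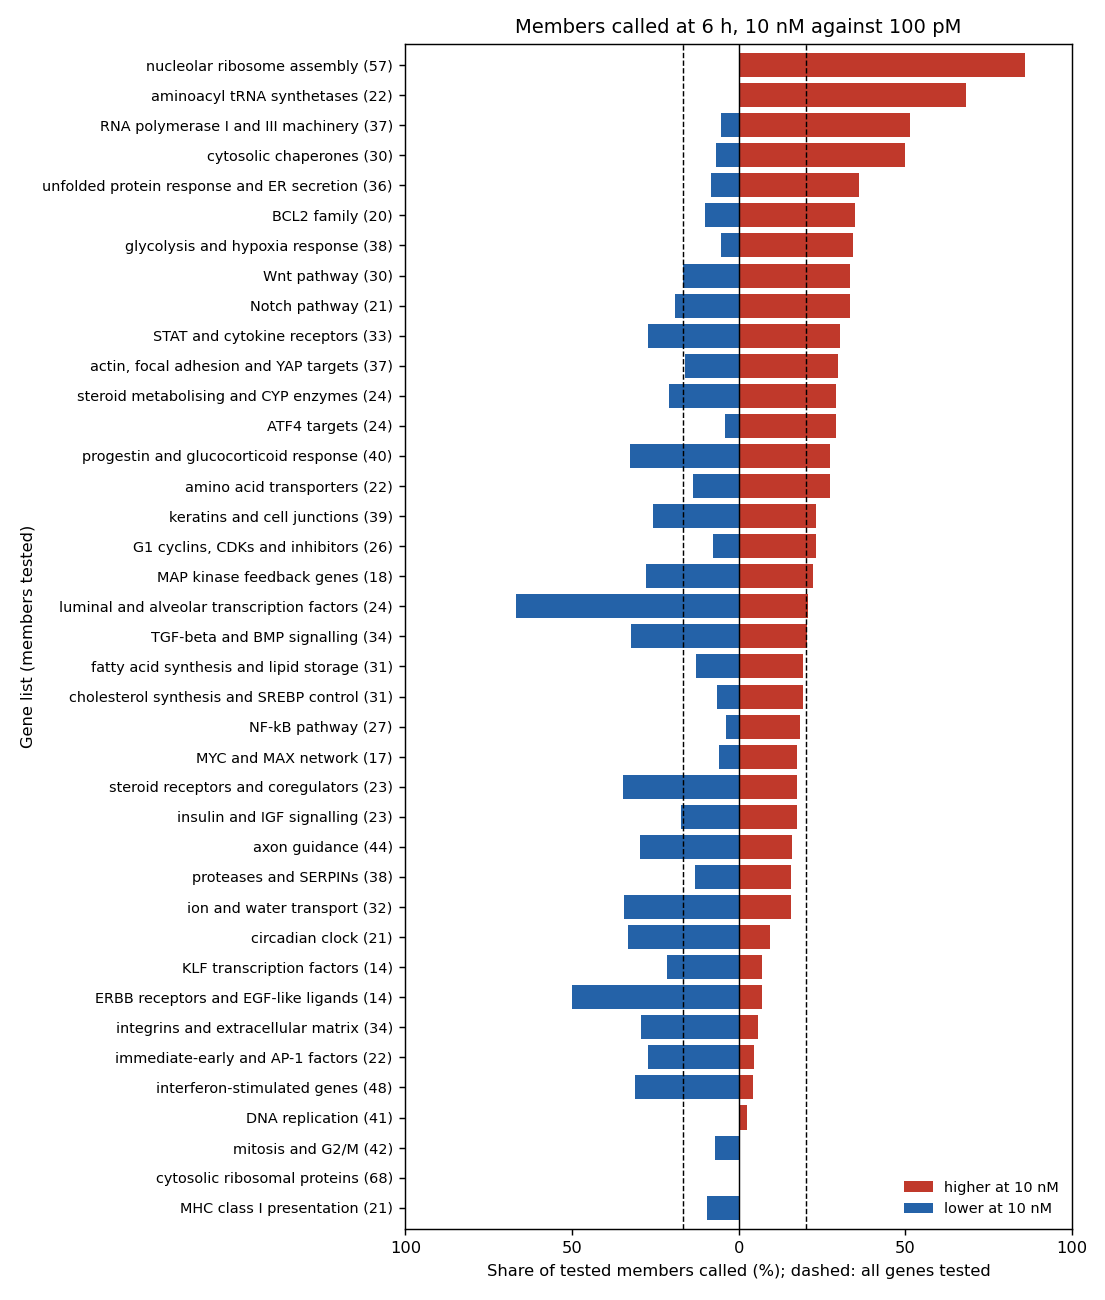
Share of the tested members of each gene list that was called higher (red, to the right) or lower (blue, to the left) at 10 nM than at 100 pM at 6 h, in percent, with the number of tested members after each name. Dashed lines mark the shares over all genes tested, 20.1% higher and 16.8% lower, and the nucleolar assembly list reaches furthest to the right (86%) and the lineage transcription factors furthest to the left (66.7%).

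The same pair of doses was compared at 18 h in 4 other libraries, and the difference between the times was tested in the same fit. At 18 h 2051 genes (14.8%) were higher and 1584 (11.4%) lower at 10 nM, 26.2% in all. Of the 2795 genes higher at 6 h, 1305 were higher, 77 lower and 1413 not called at 18 h. Of the 2332 lower at 6 h, 845 were lower, 65 higher and 1422 not called. The 1305 genes were 46.7% of those higher at 6 h and 63.6% of those higher at 18 h. Across the 13872 genes the log2 fold changes of the times correlated with r = 0.691, a description over genes that are not independent. The difference between the doses differed between the times for 1697 genes (12.2%), 928 (6.69%) with a larger log2 fold change at 6 h and 769 (5.54%) with a smaller one. Those 1697 became 746 without 100 pM replicate 3, 819 without 10 nM replicate 1 and 1038 without 10 nM replicate 3 of 6 h. They became 934, 1114 and 1064 without 100 pM replicate 1, 10 nM replicate 1 and 10 nM replicate 3 of 18 h. The 3635 calls at 18 h became 2376 without 100 pM replicate 3 and 2286 without 10 nM replicate 1 of that time.

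Few nucleolar genes were called at 18 h. Of the 57 members 6 were higher and 2 lower at 18 h (median log2 0.071), and for 30 of the 57 the difference between the times was called. Over all genes tested 14.8% were higher and 11.4% lower at 18 h, and the difference between the times was called for 12.2%. RRS1, a ribosome assembly factor, measured 27.2 and 19.7 CPM at 100 pM and 73.96 and 69.6 at 10 nM at 6 h (log2 1.61 ± 0.19, edgeR adjusted p = 0.000302). At 18 h it measured 30.1 and 22.5 CPM at 100 pM and 22.3 and 21.5 at 10 nM, and its log2 fold change was 1.88 larger at 6 h. Of the 68 ribosomal protein genes 9 were higher at 18 h and 0 lower, beside the same 14.8% and 11.4% of all genes. The actin and focal adhesion list, with 11 genes higher and 6 lower at 6 h, had 4 higher and 17 lower at 18 h.

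Among called genes whose average log2 CPM was 2 or more, the 5 whose log2 fold change at 6 h most exceeded that at 18 h were BCAS1 (2.57), the potassium channel gene KCNC1 (2.52), CBR3 (2.43), PALMD (2.42) and ENTPD3, an enzyme that breaks down extracellular nucleotides (2.19), as the fold change at 6 h minus that at 18 h on the log2 scale. BCAS1 was lower at 10 nM at both times, with a log2 fold change of -0.53 ± 0.12 at 6 h and -3.098 ± 0.14 at 18 h. KCNC1 was 1.06 ± 0.37 at 6 h (edgeR adjusted p = 0.0548) and -1.47 ± 0.38 at 18 h. ENTPD3 was -0.85 ± 0.28 at 6 h (edgeR adjusted p = 0.0434) and -3.05 ± 0.35 at 18 h. BCAS1 lost its call without 100 pM replicate 3 or 10 nM replicate 3 (edgeR adjusted p = 0.0602 to 0.0671), and ENTPD3 lost its call without 100 pM replicate 1, 100 pM replicate 3 or 10 nM replicate 3 (edgeR adjusted p = 0.050001 to 0.225). The log2 fold change of ENTPD3 at 6 h was -1.28 without 10 nM replicate 1 and -0.51 without 10 nM replicate 3.

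The 5 of these whose log2 fold change at 6 h lay furthest below that at 18 h were FAM83A (-3.82), SOX2 (-3.81), SLITRK5 (-3.16), SLITRK6 (-2.99) and SLC15A2, a peptide transporter (-2.99). SLITRK5 measured 10.8 and 10.5 CPM at 100 pM and 1.91 and 1.55 at 10 nM at 6 h (log2 -2.61 ± 0.16, edgeR adjusted p = 1.08e-05). At 18 h it measured 5.74 and 5.88 CPM at 100 pM and 7.69 and 9.27 at 10 nM (log2 0.55 ± 0.14), so that its direction turned. SLC15A2 was not called at 6 h (log2 -0.031 ± 0.41) and was higher at 18 h (log2 2.96 ± 0.43). MAML2 changed direction as well, from -1.52 ± 0.082 at 6 h to 1.19 ± 0.082 at 18 h, with 15.3 and 14.3 CPM at 100 pM and 34.03 and 33.5 at 10 nM at the later time. NR3C2 did the same, from -1.26 ± 0.13 to 0.79 ± 0.13.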

How the data were processed

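RNA was sequenced from 12 libraries of T47D cells, of which 4 are compared here. The authors deposited raw read counts per gene symbol for all libraries in 1 table. Reads were aligned with STAR to hg19 per the submitters' processing notes, which also name DESeq2, and neither the counting tool, nor the annotation, nor the use of strand is given in the sources used here. Libraries were grouped by the dose and time in their labels.

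The 12 libraries were fitted together in edgeR 4.0.16 (R 4.3.3) with a coefficient for each of 6 groups, after filterByExpr by group, which kept 13872 of 20114 genes, and TMM scaling. The quasi-likelihood F test was robust and two-sided, p-values were adjusted by Benjamini-Hochberg over all genes tested, and a gene was called at an adjusted p under 0.05. The SE is the absolute log2 fold change divided by the square root of F.

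In a simulation of the 6 h comparison on 13607 genes edgeR called 6.06% of 1.5-fold, 40.3% of 2-fold and 81.5% of 4-fold changes. Only 66, 67 and 65 genes were changed by these folds, whereas 5127 were called in the data. The adjustment for many tests was thus stricter in the simulation, so its shares are not the power of the comparison made here. A missed call is still not read as the absence of a small difference. Few reads limit the precision of low genes, and the counts are given for genes named with under 25 in a compared library. Libraries of 1 dose were not duplicates (chi-square per degree of freedom 42.6 and 63.9).

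Named genes were the 12 largest called rises and falls, up to 4 called members of each list by adjusted p, other list members whose value is given, 5 differences between times in each direction, and 9 genes named always. Not every eligible gene is named, and genes whose call stood without any 1 library were preferred. The members and lists were chosen with earlier results of these data known, and MT1F, the motifs and the promoters after their values were seen. Alternatives covered DESeq2 1.42.0, scaling, filters, a replicate block, fewer libraries and each library left out.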

Additional observations from a re-analysis of the deposited data

Results flagged for a closer look

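For 69 of the 197 genes named, edgeR's test of the difference between the doses at 6 h minus that at 18 h passed an adjusted p of 0.05, which is why they are listed. Each value below is the log2 fold change of 10 nM against 100 pM at 6 h minus the one at 18 h. Most of these genes were named for their result at 6 h, and they are listed only where this difference was called. A sign shared by a group of them is thus partly set by the choice.

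Among growth genes the difference was positive in every listed member, with NOP16 1.41, RRP12 1.196, DKC1 1.29, RRS1 1.88, IMP4 0.78, CIRH1A 0.84 and NAT10 0.65 for ribosome assembly, and GTF3A 0.59 and POLR1E 0.99 for RNA polymerases I and III. The chaperone and ER genes followed with CCT3 0.57, HYOU1 0.997 and MANF 0.75.

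Among the named genes of receptors, lineage factors and keratins most values were negative, with ESR1 -1.31, NR3C2 -2.05, GREB1 -0.91, EHF -2.04, TFAP2C -0.95, RUNX1 -1.08, GRHL2 -0.79 and TRPS1 -1.12. Members of the receptor and lineage lists that are not named also had called differences, in both directions. Positive values came from VDR 1.17, KRT18 0.62 and KRT8 0.95.

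Factors of fast responses gave JUNB -1.2996, IER2 -0.96, KLF9 -1.43, TEF -0.90 and IER5 1.396. The stem cell factor gave SOX2 -3.81.

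In signalling, the positive values were TGFA 0.81, WNT7B 1.503, ERBB2 0.59, ZNRF3 0.97, DUSP14 1.64 and TNFRSF21 1.31. The negative ones were NOTCH3 -0.81, BMPR1A -0.38, MAML2 -2.704, RNF43 -1.92, FZD2 -1.47, LIFR -1.56, TRAF5 -1.08, TRIM25 -0.89 and VAV3 -1.69.

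In metabolism and transport the positive values were MT1X 3.096, CBR3 2.43, CA12 1.25, SLC2A1 1.004, SLC1A4 1.65, AQP3 2.19, KCNC1 2.52 and ENTPD3 2.19. The negative ones were SLC2A12 -2.77, SLC15A2 -2.99 and INSIG2 -0.69.

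Of surface, cytoskeletal and other genes, BCAS1 2.57, PALMD 2.42, EEPD1 1.39, TMPRSS2 2.08 and PXN 0.88 were positive. The negative values were FAM83A -3.82, SLITRK5 -3.16, SLITRK6 -2.99, RBBP8NL -2.51, GPR124 -2.02, AMIGO2 -1.37, CLDN12 -0.44, TJP3 -0.59 and ASPM -0.91.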

How the results depend on the processing

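With the replicate number as a block, 8231 genes were called at 6 h, 6958 at 18 h and 5215 for the difference between times, against 5127, 3635 and 1697 without it. Libraries with the same number deviated together (r = 0.464 to 0.677 over the 15 pairs of groups, which have 2 numbers each), but the labels do not say what a number shares, so the block is not the design used. Among the named genes the block turned FKBP5, KCNC1 and KRT8 into calls and ended none. It also turned the balance of higher and lower calls in some lists, to 9 and 10 for G1 regulators, 8 and 11 for fatty acid genes, 10 and 12 for proteases and SERPINs, and 8 and 9 for steroid metabolising enzymes. Calls rose in further lists, to 18 higher and 5 lower for cholesterol genes and 16 and 4 for ATF4 targets. They rose to 4 and 6 for KLF factors, 6 and 5 for the MYC and MAX network and 6 and 19 for integrin and matrix genes. With DESeq2 2543 genes were called for the difference between times, 5620 at 6 h and 4225 at 18 h.

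Leaving out each library in turn gave 3281 to 4242 calls at 6 h, 2286 to 2900 at 18 h and 746 to 1282 for the difference between times. The lone library left at a dose was then assumed to vary like those of the other groups. NR3C1 ran from -0.31 to 0.17 and changed sign without 10 nM 6 h replicate 3. SLC15A2 ran from -0.45 to 0.55 and changed sign without 100 pM 6 h replicate 3 and without 10 nM 6 h replicate 1 (0.29). Neither was called in any of these fits. ENTPD3 and MAML1 were not called with the libraries of 6 h alone, nor were these, BMPR1A, CLDN1 and ERBB3 with the 4 compared. MAML1 lost its call with upper-quartile scaling and with either other filter, and STAT5A with no filter on low counts. KRT8 was called lower by DESeq2, with upper-quartile scaling and with the stricter filter, and KCNC1 higher by DESeq2. Genes whose call stood without any 1 library were preferred for naming, so the named genes do not show how stable calls are. The other scalings and filters kept the counts over all genes within 1.5 times.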
